A study of Mus musculus with 16 samples.

Results

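The cyclins, cyclin-dependent kinases (CDK) and CDK inhibitors that act in the G1 phase of the cell cycle were followed in RNA-seq data of mouse neural stem cells (NSC) treated with an shRNA against the long noncoding RNA RUS. The group is a list of 10 named genes. They are the D cyclins Ccnd1, Ccnd2 and Ccnd3, the E cyclins Ccne1 and Ccne2, the kinases Cdk4 and Cdk6, the inhibitors Cdkn1a (p21) and Cdkn1b (p27), and the transcription factor E2f1. All 10 have a line among the 55471 gene lines of each deposited table, and all 10 passed the filter on low values.

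During G1, D cyclins bind Cdk4 or Cdk6, and these complexes phosphorylate the retinoblastoma protein and its relatives, which otherwise hold E2F factors in check. Freed E2F factors switch on the E cyclins, which bind Cdk2, together with the genes for DNA replication, and the cell enters S phase. The inhibitors p21 and p27 bind cyclin-CDK complexes, and in the developing cortex p27 is known for its part in the exit of progenitors from the cycle.

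NSC were isolated from cortices of C57BL/6 embryos at E15 to E16, pooled from animals of both sexes, and infected with a lentivirus for a scrambled shRNA (shRNA-CON) or for an shRNA against RUS (shRNA-RUS). RNA was taken on day 5 and on day 7 of culture, and each shRNA and day has 4 libraries, 16 in all. The cells grew with FGF2 and were moved to differentiation medium after day 5, so day 7 also differs from day 5 in the medium. All groups carry a lentiviral shRNA vector, no untransduced group was analysed here, and no second shRNA against RUS is described for these libraries. The labels give neither a batch nor a date, so that the day and any processing batch cannot be told apart. They also do not say that replicates came from separate cultures, and p-values measure the spread between these libraries, which may be technical.

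Transcript levels are in scaled TPM, that is, TPM (a transcript abundance adjusted for transcript length and set to a common sum in each library) divided by a library factor that brings the 16 libraries to a common scale. Fold changes are log2 values of shRNA-RUS over shRNA-CON or of day 7 over day 5, with limma's standard error (SE). A gene was called higher or lower at a Benjamini-Hochberg adjusted p under 0.05 over all genes tested. The tables hold no counts, so the sequencing depth is unknown.

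The transcript of RUS itself, Gm20754, was close to 0 in every library. On day 5 it was at 0.24, 0.11, 0.18 and 0.16 TPM in shRNA-CON and at 0.050, 0, 0.12 and 0.32 TPM in shRNA-RUS (exact permutation test, two-sided, p = 0.543). On day 7 it was at 0.70, 0.72, 0.26 and 0.54 TPM in shRNA-CON and at 0.54, 0.38, 0 and 0.040 TPM in shRNA-RUS (exact permutation p = 0.143; the smallest p possible with 4 against 4 libraries is 0.0286). A depletion was therefore not resolved at this level on either day in these libraries, and the library labelled shRNA-RUS replicate 4 on day 5 was above all 4 controls of that day. RT-qPCR of RUS was also done for this experiment and was not analysed here. Without replicate 4 of shRNA-RUS, 9 of the 10 genes were called on day 5 in place of 8, because Ccnd3 passed the threshold.

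Among the cell type markers, the summed level of 6 NSC and radial glia genes lay at 12500 to 14600 scaled TPM in shRNA-CON and 17700 to 21200 in shRNA-RUS on day 5, and at 6790 to 7040 and 7020 to 7680 on day 7. These sums rest mostly on Vim and Fabp7, while the NSC marker Nes was lower in shRNA-RUS (means of 57.6 and 31.4 scaled TPM on day 5, 102 and 44.5 on day 7). Sox2 did not follow Nes, with means of 168 and 167 on day 5 and 148 and 161 on day 7, shRNA-CON first. Nor did Pax6, with 58.3 and 69.5 and then 56.2 and 64.0. The mean of Slc1a3 was lower with shRNA-RUS on both days, as for Nes (892 and 828, then 711 and 636). Markers of other cells were present as well. The 5 astrocyte genes summed to 3730 to 3940 and 5140 to 5640 on day 5 and to 1980 to 2050 and 2630 to 2780 on day 7, and the 6 neuronal genes to 482 to 550 and 494 to 556 on day 5 and to 702 to 782 and 651 to 773 on day 7, shRNA-CON first in each pair. Neither sum speaks for all its genes. On day 5 the means of Gfap (1850 and 2790) and Aldoc (1330 and 1970) differed, but those of Aqp4 (352 and 351), Aldh1l1 (303 and 305) and S100b (4.58 and 4.65) hardly did. Among the neuronal genes on day 5, Map2 (156 and 114) and Dcx (36.7 and 25.9) had lower means with shRNA-RUS and Stmn2 (153 and 229) a higher one. On day 7 the means of Map2 (307 and 259) and Stmn2 (65.4 and 58.7) were lower with shRNA-RUS. Those of Dcx (101 and 111), Snap25 (17.7 and 26.7) and Rbfox3 (2.12 and 3.06) were higher, and that of Tubb3 (237 and 239) hardly differed. In the same order, the 5 genes of the oligodendrocyte lineage summed to 92.6 to 116 and 57.7 to 72.4 on day 5 and to 172 to 204 and 90.6 to 139 on day 7. The 6 microglial genes summed to 32.8 to 34.5 and 28.7 to 37.7 on day 5 and to 84.4 to 89.0 and 41.0 to 51.4 on day 7. The 6 fibroblast and vascular genes summed to 27.3 to 31.3 and 25.7 to 36.4 on day 5 and to 14.2 to 15.6 and 29.7 to 33.9 on day 7, with the endothelial marker Cldn5 at 0 in every shRNA-CON library of day 7. On day 7 the last sum rests mostly on Pdgfrb (means of 10.6 and 26.3), beside 3.04 and 3.70 for Col1a2 and 0.389 and 0.249 for Dcn. The part of these cell types in the results was not tested, and in bulk RNA fewer cells that express a gene cannot be told apart from less of its RNA per cell.

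Most genes that drive G1 were lower after infection with shRNA-RUS, and the inhibitor Cdkn1a was higher, on both days. On day 5, 7 of the 10 genes fell (Ccnd1, Ccnd2, Ccne1, Ccne2, Cdk4, Cdk6 and E2f1), Cdkn1a rose, and Ccnd3 and Cdkn1b were not called. Among all genes tested on that day, 17.9% were called lower and 14.8% higher. On day 7 the same 7 genes fell, and Cdkn1a and Cdkn1b rose, while Ccnd3 was again not called. The share of all genes called on day 7 was 25.8% lower and 23.4% higher. The median log2 fold change of the 10 genes was −0.674 on day 5 and −0.998 on day 7, against −0.061 and −0.029 over all genes tested. The balance of these calls depends on the scaling: on day 5, 45.3% of all calls were higher with scaled TPM and 22.7% with TPM as deposited, where the median over all genes was −0.21. All 4 libraries of one shRNA lay above all 4 of the other for 8 of the 10 genes on day 5 and for 9 on day 7, against 32.8% and 47.0% of all genes tested.

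**Figure D1:**
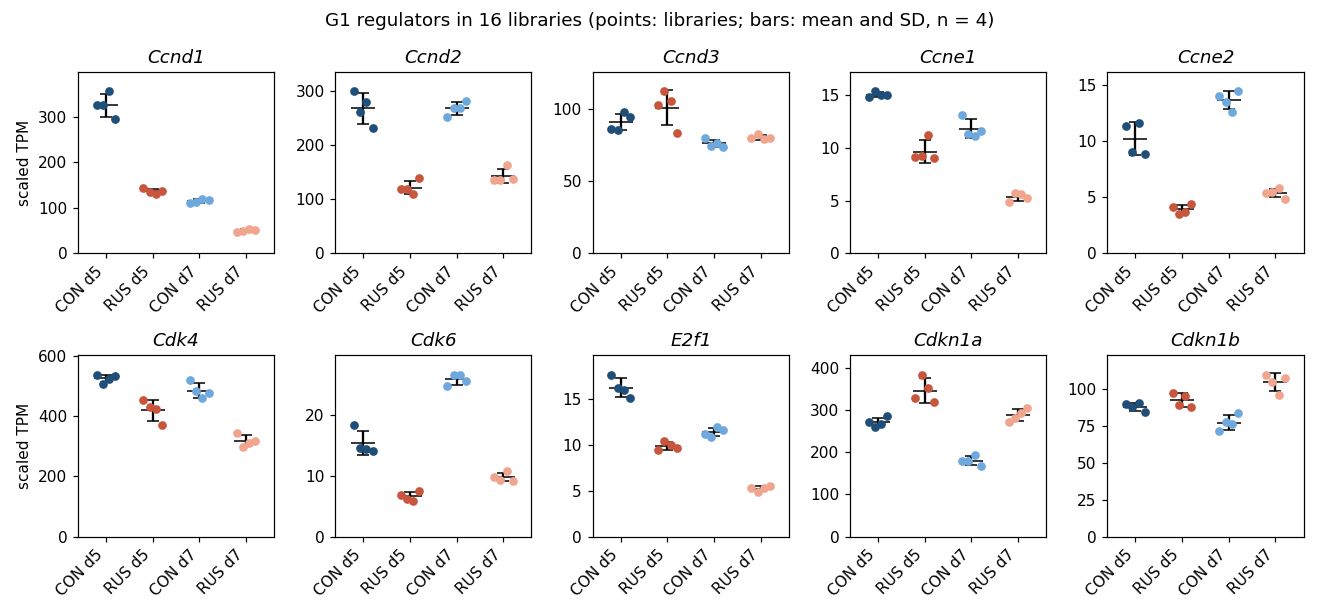
Scaled TPM (y axes, from 0) of the 10 genes in each of the 16 libraries, by shRNA and day (d5, day 5; d7, day 7). Points are libraries and bars are the mean and SD of 4. For Ccnd1 the 4 groups form separate steps, from 326 in shRNA-CON on day 5 down to 50.1 in shRNA-RUS on day 7. With TPM as deposited the middle groups of Ccnd1, shRNA-RUS on day 5 and shRNA-CON on day 7, overlap. The 4 groups of Ccnd3 lie between 73.7 and 112.

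**Figure D2:**
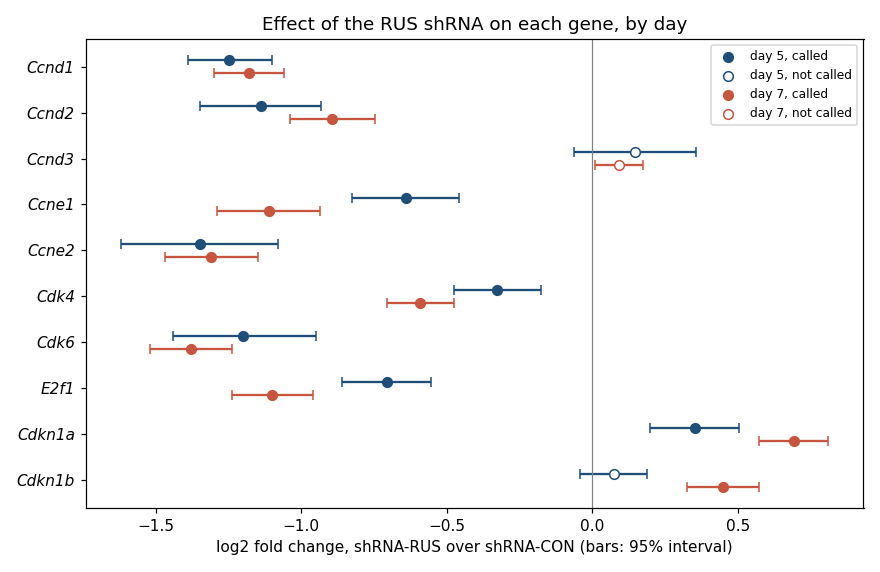
Log2 fold change of shRNA-RUS over shRNA-CON (x axis) with its 95% interval for each gene on day 5 (blue) and day 7 (red). Filled points are called and open points are not. Points of Ccnd1, Ccnd2, Ccne1, Ccne2, Cdk4, Cdk6 and E2f1 lie left of 0 on both days, those of Cdkn1a lie right of 0 on both days, and that of Cdkn1b is filled on day 7 only.

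The D cyclins couple growth factor signals to the G1 kinases. The gene of Ccnd1 spans 144929931 to 144939925 of chromosome 7, minus strand (GRCm38, GENCODE). On day 5, Ccnd1 stood at 327, 327, 356 and 295 scaled TPM in the 4 shRNA-CON libraries and at 144, 135, 131.5 and 138 in the 4 shRNA-RUS libraries. The day 7 libraries stood at 110.1, 113, 119 and 117 in shRNA-CON and at 46.0, 48.3, 53.8 and 52.3 in shRNA-RUS. Every library with shRNA-RUS was below every control of its day. In scaled TPM even the controls of day 7 were below the shRNA-RUS libraries of day 5. With TPM as deposited these groups overlapped (118.08 to 129.68 in shRNA-CON on day 7, 113.68 to 127.68 in shRNA-RUS on day 5). The log2 fold change was −1.25 (SE 0.064, adjusted p = 1.07e-05) on day 5 and −1.18 (SE 0.055, adjusted p = 3.33e-07) on day 7. These effects differed by 0.052 (95% interval −0.13 to 0.23, adjusted p = 0.681), and a difference was not shown, although the level itself was lower on day 7.

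Ccnd2, the D cyclin that is prominent in cortical progenitors, spans 127125162 to 127152193 of chromosome 6, minus strand. Its level on day 5 was 299, 261.5, 279.6 and 232 scaled TPM with shRNA-CON and 119, 118, 110.4 and 139 with shRNA-RUS. The day 7 values were 252.5, 268, 269 and 281 with shRNA-CON and 135, 136, 163 and 138 with shRNA-RUS. The groups did not overlap on either day. Ccnd2 fell on both days, with log2 fold changes of −1.14 (SE 0.092, adjusted p = 4.54e-05) and −0.89 (SE 0.065, adjusted p = 4.05e-06), and the effects of the days differed by 0.23 (95% interval −0.020 to 0.49, adjusted p = 0.157).

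Exons of Ccnd2 overlap those of Gm43126, an antisense gene, and the sources used here do not say whether reads were counted by strand, so that reads of the pair cannot be told apart. Gm43126 was at 60.4 to 77.4 scaled TPM with shRNA-CON and 45.9 to 68.1 with shRNA-RUS on day 5, but at 0 to 2.97 and 0 to 11.1 on day 7. Summed with Gm43126, Ccnd2 was still lower with shRNA-RUS, with −0.93 on day 5 and −0.89 on day 7 as log2 values (exact permutation p = 0.0286 each, the smallest possible). The comparison of the days was not robust to this sum. Ccnd2 alone differed between day 5 and day 7 by 0.0030 in shRNA-CON (adjusted p = 0.987) and by 0.24 in shRNA-RUS (adjusted p = 0.0234), whereas the sum gave −0.32 and −0.29 (exact permutation p = 0.0286 each).

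Ccnd3, the third D cyclin, spans 47505051 to 47599691 of chromosome 17, plus strand. It was at 86.2, 85.7, 97.5 and 94.1 scaled TPM with shRNA-CON and 103, 112, 105 and 83.5 with shRNA-RUS on day 5. At day 7 the values were 79.8, 74.3, 76.3 and 73.7 with shRNA-CON and 80.0, 82.3, 78.8 and 79.5 with shRNA-RUS. The groups overlapped on both days, through replicate 4 of shRNA-RUS on day 5 and replicate 1 of shRNA-CON on day 7. The log2 fold change was 0.15 on day 5 (95% interval −0.063 to 0.36, adjusted p = 0.264) and 0.091 on day 7 (95% interval 0.0093 to 0.17, adjusted p = 0.0642). Leaving out either of these libraries brought the gene over the threshold (0.24, adjusted p = 0.0188 on day 5; 0.12, adjusted p = 0.0241 on day 7), and with TPM as deposited the day 5 value was −0.012.

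With 2 of the genes falling and the third near its control level, the make-up of the D cyclin pool shifted. The summed D cyclin level was 685 ± 49.6 scaled TPM (SD, n = 4) with shRNA-CON and 360 ± 8.57 with shRNA-RUS on day 5, and 458 ± 12.6 and 273 ± 15.5 on day 7. Ccnd3 made up 12.1% to 15.2% of this sum in the shRNA-CON libraries of day 5 and 23.2% to 30.7% in those with shRNA-RUS. On day 7 the ranges for Ccnd3 were 15.6% to 18.0% and 26.6% to 30.9%. A share within a library does not depend on the library factor. The pool also differed between the days, which differ in medium as well and cannot be told apart from a batch. Ccnd1 made up 47.6% and Ccnd2 39.1% of the sum on average in shRNA-CON on day 5, but 24.8% to 25.6% and 57.1% to 59.6% of it on day 7. The share of Ccnd2 is affected by the overlap with Gm43126 described above.

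**Figure D3:**
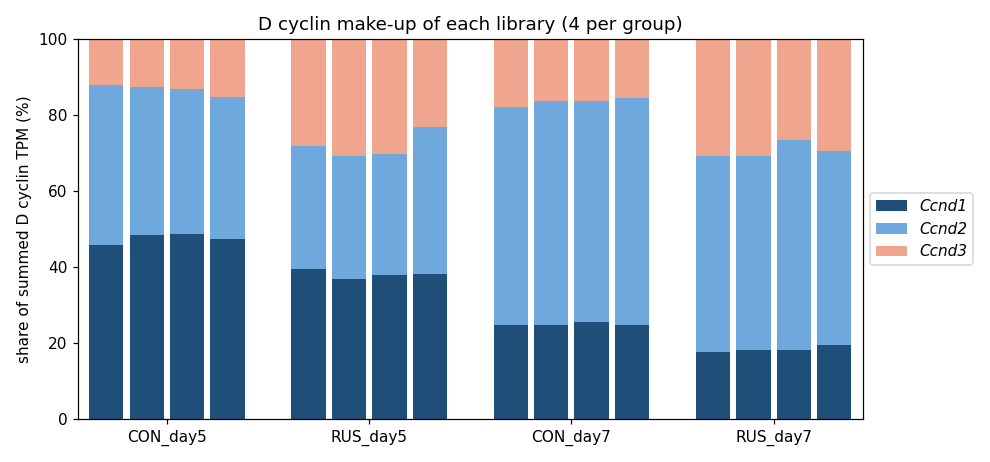
Share of Ccnd1, Ccnd2 and Ccnd3 in the summed D cyclin TPM (y axis, percent) of each of the 16 libraries (bars, 4 per group, replicates 1 to 4 from left to right). The share of Ccnd3 is 12.1% to 18.0% in the shRNA-CON libraries of both days and 23.2% to 30.9% in the shRNA-RUS libraries, and the share of Ccnd1 is lower on day 7 than on day 5.

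The partner kinases were unequal in level. Cdk4 (chromosome 10, 127063534 to 127067920, plus strand) is the main D cyclin kinase of these cultures by transcript level, and Cdk6 (chromosome 5, 3341485 to 3531008, plus strand) made up 1.37% to 5.47% of their sum. On day 5, Cdk4 was at 539, 509, 524 and 533 scaled TPM in shRNA-CON and at 454, 430.0, 425 and 370.5 in shRNA-RUS. On day 7, Cdk4 was at 521, 483, 461 and 477 in shRNA-CON and at 345, 299.6, 313 and 319 in shRNA-RUS. Its groups did not overlap, yet the drop was the smallest among the 7 genes that fell, with −0.33 (SE 0.066, adjusted p = 0.00483) on day 5 and −0.59 (SE 0.051, adjusted p = 1.09e-05) on day 7 on the log2 scale. The increase of the effect, by −0.28, was called (SE 0.085, adjusted p = 0.022), but not with TPM as deposited, with quantile normalization or without replicate 2 of shRNA-RUS on day 7.

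Exons of Cdk4 overlap those of Tspan31 on the other strand, which was at 124 to 128 scaled TPM with shRNA-CON and 101 to 108 with shRNA-RUS on day 5, and at 101 ± 4.41 and 73.3 ± 1.54 (SD, n = 4) on day 7. Both genes of the pair were thus lower with shRNA-RUS, and their sum gave −0.32 on day 5 and −0.58 on day 7 (exact permutation p = 0.0286 each). From day 5 to day 7 the sum differed by −0.15 in shRNA-CON and −0.42 in shRNA-RUS, at the same unadjusted p, the smallest that 4 against 4 libraries allow.

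Cdk6, which shares the D cyclins with Cdk4, had a larger fold change. On day 5 its libraries were at 18.4, 14.5, 14.5 and 14.2 scaled TPM with shRNA-CON and at 6.90, 6.14, 5.92 and 7.59 with shRNA-RUS. On day 7 they were at 24.8, 26.7, 26.7 and 25.6 with shRNA-CON and at 9.88, 9.35, 10.8 and 9.22 with shRNA-RUS. No library with shRNA-RUS reached a control, on day 7 not even the lower controls of day 5. Cdk6 fell by 1.20 on the log2 scale on day 5 (SE 0.11, adjusted p = 7.75e-05) and by 1.38 on day 7 (SE 0.061, adjusted p = 2.67e-07). The share of Cdk6 in the sum of both kinases was 2.59% to 3.30% and 1.37% to 2.01% on day 5, and 4.55% to 5.47% and 2.78% to 3.34% on day 7, shRNA-CON first.

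The promoter window of Cdk4 is shown because E-box words, the sites that Myc family proteins bind together with Max, occur in it. The window is the 250 bases before the start that RefSeq gives on GRCm38.p6, printed on the plus strand from 5′ to 3′. Capitals mark the E-box word CACGTG, which reads the same on both strands.
Cdk4, chr10:127063285-127063534: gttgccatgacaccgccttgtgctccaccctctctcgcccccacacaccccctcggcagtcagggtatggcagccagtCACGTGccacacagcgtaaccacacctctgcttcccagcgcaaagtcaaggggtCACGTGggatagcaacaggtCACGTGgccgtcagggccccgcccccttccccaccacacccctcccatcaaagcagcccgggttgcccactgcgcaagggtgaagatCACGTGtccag
The word occurs 4 times in the window, first at −172, −118, −98 and −11 from the start. The window matched to Cdk6 holds it once, but the RefSeq start behind that window lies 2408 bases inside the GENCODE gene, so it is not the sequence before the gene and is not shown. Of 32851 promoter windows of 300 bases in the table, 7.15% hold it at least once and 8 hold it at least 4 times. None of the windows matched to the other genes of the group (7 of the 10 genes matched, with 9 windows) holds it, and 4 of the 9, the windows of Cdk6 and E2f1 and 1 of 2 each for Cdkn1a and Ccnd3, lie wholly inside the GENCODE gene. The word was chosen after the values had been seen, and a match is a description and not a binding site. A part of Myc family proteins in the level of Cdk4 was not tested. Mycn, the Myc family gene of neural progenitors, fell with shRNA-RUS by 0.87 on the log2 scale on day 5 (SE 0.091, adjusted p = 1.45e-04) and by 0.29 on day 7 (SE 0.075, adjusted p = 0.00994), whereas Max rose by 0.41 (SE 0.067, adjusted p = 0.00165) and 0.95 (SE 0.054, adjusted p = 9.81e-07).

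The same 9 windows were searched on both strands for the E2F words TTTCCCGC, TTTGGCGC, TTTCGCGC and TTTGCCGC and for the word TTTGAA of cell cycle promoters. No window of the group holds any of them, while 2.26% of all windows hold an E2F word and 17.9% hold TTTGAA. This says only that these letters are not in these windows at RefSeq starts, and nothing is read from it for Cdk6 or E2f1, whose windows do not reach the sequence before the GENCODE gene.

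The E cyclins activate Cdk2 at the end of G1. Ccne1 (chromosome 7, 38097984 to 38107534, minus strand) was at 14.8, 15.4, 15.04 and 15.02 scaled TPM with shRNA-CON and 9.10, 9.22, 11.3 and 9.02 with shRNA-RUS on day 5. By day 7 it was at 13.2, 11.4, 11.2 and 11.6 with shRNA-CON and 4.88, 5.70, 5.64 and 5.22 with shRNA-RUS. All libraries with shRNA-RUS were below the controls of their day, and the gap was wider on day 7. The log2 fold change was −0.64 (SE 0.081, adjusted p = 4.19e-04) on day 5 and −1.11 (SE 0.078, adjusted p = 3.34e-06) on day 7, and the difference between these effects was called (−0.48, SE 0.11, adjusted p = 0.00397).

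Ccne2 (chromosome 4, 11191351 to 11204779, plus strand), the second E cyclin, was at 11.4, 9.09, 11.7 and 8.87 scaled TPM with shRNA-CON and 4.10, 3.49, 3.71 and 4.43 with shRNA-RUS on day 5. It was at 14.0, 13.5, 12.6 and 14.5 with shRNA-CON and 5.41, 5.44, 5.84 and 4.88 with shRNA-RUS on day 7. The groups were far apart on both days, and the log2 values for Ccne2 were −1.35 (SE 0.12, adjusted p = 6.6e-05) and −1.31 (SE 0.072, adjusted p = 7.67e-07). The interval of the difference ran from −0.27 to 0.33 (adjusted p = 0.908). Ccne1 made up 67.1% to 75.2% of the E cyclin sum with shRNA-RUS on day 5 against 56.3% to 62.9% with shRNA-CON, and on day 7 the ranges of 47.4% to 51.7% and 44.5% to 48.4% overlapped.

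E2f1 (chromosome 2, 154559407 to 154569892, minus strand) encodes an activating E2F factor and is itself a gene that E2F factors switch on. It was at 17.6, 16.1, 16.0 and 15.1 scaled TPM in shRNA-CON and 9.42, 10.4, 9.97 and 9.66 in shRNA-RUS on day 5. By day 7 it stood at 11.2, 10.9, 11.9 and 11.6 in shRNA-CON and 5.25, 4.80, 5.31 and 5.47 in shRNA-RUS. The 4 groups formed separate steps without overlap in scaled TPM, as with Ccnd1. Unlike those of Ccnd1, they were also separate with TPM as deposited. E2f1 fell by 0.71 on the log2 scale on day 5 (SE 0.068, adjusted p = 9.85e-05) and by 1.10 on day 7 (SE 0.062, adjusted p = 9.39e-07). The difference of −0.41 between these effects was called (SE 0.087, adjusted p = 0.00254), but not with TPM as deposited (adjusted p = 0.0922).

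Of the inhibitors, Cdkn1a (chromosome 17, 29090976 to 29100727, plus strand), a well known target of p53, was the more abundant. On day 5 it was at 271, 259.9, 268 and 286 scaled TPM with shRNA-CON and 329, 384, 353 and 319 with shRNA-RUS. On day 7 it was at 179, 179.9, 193 and 168 with shRNA-CON and 273, 280.0, 292 and 305 with shRNA-RUS. Each library with shRNA-RUS was above the controls of its day. In scaled TPM the shRNA-RUS libraries of day 7 overlapped the controls of day 5. With TPM as deposited they were all above those controls (294.35 to 335.6 against 244.99 to 276.52). Cdkn1a was higher by 0.35 (SE 0.068, adjusted p = 0.00378) on day 5, which was not called after quantile normalization (0.16, adjusted p = 0.0712), and by 0.69 (SE 0.053, adjusted p = 5.37e-06) on day 7. The difference of 0.33 between the days was called (SE 0.084, adjusted p = 0.00837).

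Cdkn1b (chromosome 6, 134920401 to 134925513, plus strand) was at 89.4, 88.0, 90.2 and 84.2 scaled TPM with shRNA-CON and 97.2, 89.4, 95.4 and 87.9 with shRNA-RUS on day 5. On day 7 it was at 71.4, 77.4, 76.4 and 83.8 with shRNA-CON and 109.7, 104, 96.0 and 108 with shRNA-RUS. The groups overlapped on day 5 and were apart on day 7. The log2 fold change was 0.073 on day 5 (95% interval −0.042 to 0.19, adjusted p = 0.309) and 0.45 on day 7 (SE 0.055, adjusted p = 1.04e-04), and the difference of 0.36 was called (SE 0.077, adjusted p = 0.00235). The sum of both inhibitors was 359 ± 9.01 scaled TPM (SD, n = 4) with shRNA-CON and 439 ± 28.8 with shRNA-RUS on day 5, and 257 ± 8.86 and 392 ± 14.1 on day 7.

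Between the days, the effect of shRNA-RUS was tested directly for all 10 genes. It differed for 5, being more negative on day 7 for E2f1, Ccne1 and Cdk4 and more positive for Cdkn1a and Cdkn1b. Of all genes, 14.6% were called in the negative and 15.2% in the positive direction. The call of Cdk4 was lost with TPM as deposited (−0.10, adjusted p = 0.301), after quantile normalization (−0.088, adjusted p = 0.45) and without replicate 2 of shRNA-RUS on day 7 (−0.25, adjusted p = 0.0501), and that of E2f1 with TPM as deposited (−0.24, adjusted p = 0.0922). The 95% interval of the difference was −0.47 to 0.078 for Cdk6 (adjusted p = 0.278) and −0.29 to 0.15 for Ccnd3 (adjusted p = 0.661). The effects on Ccnd1, Ccnd2, Ccne2, Cdk6 and Ccnd3 were thus not shown to differ between the days, and the intervals given do not show them to be equal. For a pair of these genes the call depended on the processing. The difference was called for Cdk6 after quantile normalization (−0.37, adjusted p = 0.0291), and for Ccnd2 with TPM as deposited (0.41, adjusted p = 0.0405) and without replicate 4 of shRNA-RUS on day 5.

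The genes also differed between the days. From day 5 to day 7 in shRNA-CON, 6 of the 10 genes fell and 2 rose, against 21.6% and 26.9% of all genes. Ccnd1 fell by 1.51 on the log2 scale (SE 0.059, adjusted p = 1.75e-11), followed by Cdkn1a with 0.59, E2f1 with 0.50, Ccne1 with 0.35, Ccnd3 with 0.26 and Cdkn1b with 0.19. Cdk6 rose by 0.76 (SE 0.091, adjusted p = 4.73e-06) and Ccne2 by 0.42 (SE 0.10, adjusted p = 0.00251). Cdk4 differed by −0.12 (95% interval −0.24 to 0.010, adjusted p = 0.121), while its sum with the overlapping Tspan31 differed by −0.15 (exact permutation p = 0.0286, unadjusted).

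In shRNA-RUS, 6 genes fell from day 5 to day 7 and 4 rose, against 25.8% and 35.0% of all genes. Ccnd1 fell by 1.45 (SE 0.059, adjusted p = 2.39e-11), E2f1 by 0.91, Ccne1 by 0.83, Cdk4 by 0.39, Ccnd3 by 0.32 and Cdkn1a by 0.27. Cdk6 rose by 0.56, Ccne2 by 0.45, Ccnd2 by 0.24 and Cdkn1b by 0.17. The libraries of the days overlapped for Ccnd2 and Cdkn1b. The call of Ccnd2 was lost without replicate 1, 2 or 3 of day 5 or replicate 3 of day 7 (0.17 to 0.22, adjusted p from 0.0525 to 0.0875), and its sum with Gm43126 went the other way (−0.29, exact permutation p = 0.0286). Cdkn1b was called in opposite directions over time, lower in shRNA-CON and higher in shRNA-RUS, which is the same difference of 0.36 given above; its drop in shRNA-CON was not called with TPM as deposited or with quantile normalization. The median over all genes of the day comparison was 0.067 in shRNA-CON and 0.13 in shRNA-RUS with scaled TPM, and 0.21 and 0.42 with TPM as deposited, where the value of Cdkn1a in shRNA-RUS turned from −0.27 to 0.059. After quantile normalization Cdkn1a was called higher over time in shRNA-RUS (0.21, adjusted p = 0.00553). Cdk4 and Ccnd3 also lost their calls in shRNA-RUS under both scalings. Cdk4 was at −0.069 with TPM as deposited (adjusted p = 0.254) and at 0.088 after quantile normalization (adjusted p = 0.198). Ccnd3 was at 0.00072 (adjusted p = 0.999) and −0.11 (adjusted p = 0.141). In shRNA-CON, Ccnd3 was not called with TPM as deposited (−0.10, adjusted p = 0.169), and Cdk4 was called higher after quantile normalization (0.18, adjusted p = 0.0173).

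The partners of these genes were counted from lists of the pathway. The pocket proteins, which hold E2F factors in check, split. Rbl1 (p107) was at 8.08 to 9.14 scaled TPM with shRNA-CON and 4.02 to 4.99 with shRNA-RUS on day 5, and fell on both days (−0.94, SE 0.096, adjusted p = 1.29e-04; −0.90, SE 0.061, adjusted p = 2.81e-06). Rb1 and Rbl2 (p130) were not called on day 5 and rose on day 7, by 0.64 (SE 0.050, adjusted p = 6.45e-06) and 0.75 (SE 0.035, adjusted p = 3.33e-07). For both, shRNA-RUS had a different effect on the 2 days, by 0.47 (adjusted p = 0.00387) for Rb1 and 0.55 (adjusted p = 3.08e-04) for Rbl2.

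Of the 9 other E2F and DP factors, 7 fell and none rose on day 5, and 5 fell and 1 rose on day 7, with median log2 fold changes of −0.38 and −0.19. Of all genes, 17.9% were called lower and 14.8% higher on day 5 and 25.8% and 23.4% on day 7. E2f7 and E2f8, which repress E2F target genes, had the largest changes. E2f7 was at 4.17 to 4.70 and 1.38 to 2.12 scaled TPM on day 5 and at 11.8 ± 0.777 and 5.84 ± 0.85 (SD, n = 4) on day 7, shRNA-CON first, with log2 fold changes of −1.34 and −0.99. E2f8 had −1.20 and −1.01. E2f4, which acts with p130 in resting cells, fell by 0.44 on day 5 (adjusted p = 5.26e-04) and was at −0.087 on day 7 (adjusted p = 0.278).

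Of the 24 E2F target genes, 23 fell on day 5 and all 24 on day 7, and none rose; the medians were −0.81 and −0.84. Cdk1, the kinase of mitotic entry, was at 118 to 135 and 64.1 to 70.3 scaled TPM on day 5 and at 136 to 143 and 34.9 to 48.5 on day 7, and its log2 values for shRNA-RUS over shRNA-CON were −0.91 (SE 0.056, adjusted p = 1.59e-05) and −1.72 (SE 0.092, adjusted p = 6.95e-07). The A cyclin Ccna2 was at −1.12 and −1.28, the replication licensing factor Cdc6 at −1.21 and −0.80, and the helicase subunit Mcm3 at −0.99 and −1.16, all called. The share of all genes called lower, 17.9% on day 5 and 25.8% on day 7, is the background for these counts.

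**Figure D4:**
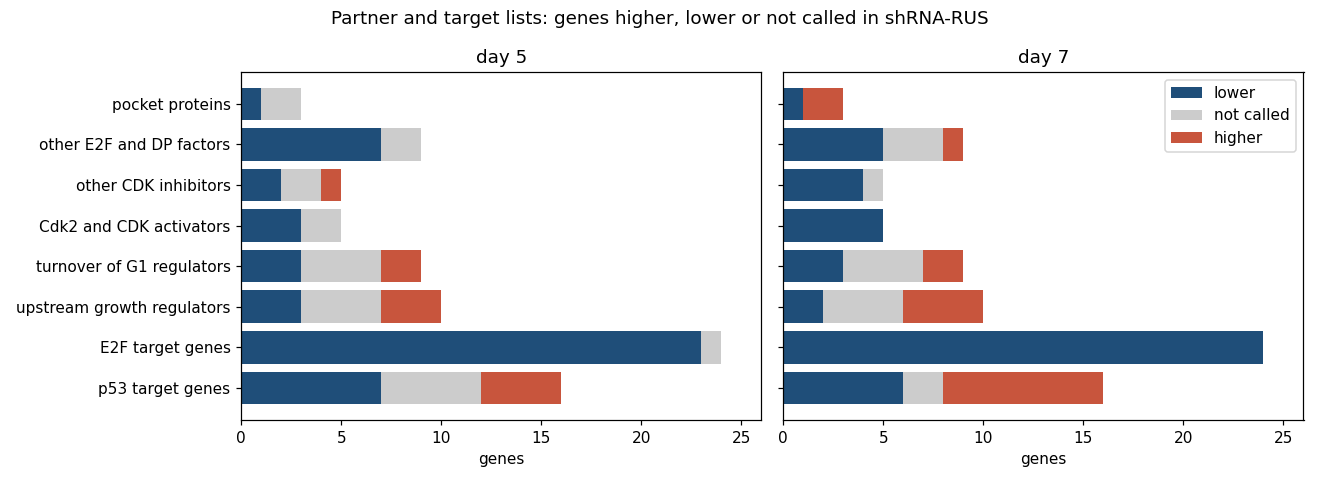
Number of genes (x axis) of each list of partners and targets that were lower (blue), not called (grey) or higher (red) with shRNA-RUS (left panel, day 5; right panel, day 7). The E2F targets are nearly all blue (23 of 24 and 24 of 24), whereas the p53 targets are mixed, with 7 lower and 4 higher of 16 on day 5 and 6 lower and 8 higher on day 7.

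Of the 5 other CDK inhibitors, 2 fell and 1 rose on day 5, and 4 fell on day 7, beside 17.9% and 25.8% of all genes called lower on those days and 14.8% called higher on day 5. The counts were not stable. On day 5 only 1 gene was called, lower, with the replicate number as a block or without replicate 2 of shRNA-CON or replicate 1 or 3 of shRNA-RUS, and on day 7 only 2 were called, both lower, without replicate 4 of shRNA-RUS. Cdkn2c (p18) was at 64.2 to 67.7 and 45.8 to 49.9 scaled TPM on day 5 and at 56.6 to 60.0 and 32.3 to 36.0 on day 7, which gives −0.46 (SE 0.047, adjusted p = 1.32e-04) and −0.76 (SE 0.045, adjusted p = 1.19e-06). Cdkn1c (p57), the third gene of the p21 and p27 family, was at −0.18 on day 5 (adjusted p = 0.598) and fell by 1.44 on day 7 (SE 0.13, adjusted p = 1.33e-05), so that on day 7 it moved against Cdkn1a and Cdkn1b. Cdkn2b fell on both days, by 0.43 and 0.39, Cdkn2a fell on day 7, by 0.53, and Cdkn2d rose by 0.35 on day 5 (adjusted p = 0.0203) and was at −0.080 on day 7.

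Cdk2, the partner of the E cyclins, was considered with the activators of the CDKs. Of these 5 genes, 3 fell on day 5 and 5 on day 7, beside 17.9% and 25.8% of all genes. The day 7 count was 3 with the replicate number as a block, without replicate 2 or 4 of shRNA-CON and without replicate 2, 3 or 4 of shRNA-RUS. Cdk2 itself was at −0.091 on day 5 (adjusted p = 0.434) and fell by 0.30 on day 7 (SE 0.046, adjusted p = 5.05e-04). Mnat1, a subunit of the CDK-activating kinase, fell by 0.38 and 0.69, and its cyclin Ccnh by 0.43 and 0.14.

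The ubiquitin ligases that remove G1 regulators were mixed, with 2 of 9 genes higher and 3 lower on each day. Of all genes, 14.8% were called higher and 17.9% lower on day 5 and 23.4% and 25.8% on day 7, and nothing is read from counts this near those shares. Skp2, which targets p27, was at 11.6 to 12.2 and 6.34 to 8.71 scaled TPM on day 5 and at 13.4 ± 0.413 and 7.55 ± 0.48 (SD, n = 4) on day 7, and it fell by 0.66 (SE 0.096, adjusted p = 8.69e-04) and 0.81 (SE 0.060, adjusted p = 4.29e-06). Its cofactor Cks1b fell by 0.40 and 0.87, and Dtl, which targets p21 in S phase, fell with −1.64 and −1.49. Ambra1, an adaptor for the breakdown of D cyclins, was at 0.076 on day 5 (adjusted p = 0.492) and rose by 0.53 on day 7 (SE 0.061, adjusted p = 6.94e-05).

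Upstream growth regulators went both ways, with 3 of 10 higher and 3 lower on day 5, and 4 higher and 2 lower on day 7. Nothing is read from these counts either, beside 14.8% and 17.9% of all genes on day 5 and 23.4% and 25.8% on day 7, higher first. Mapk3 (ERK1) rose by 0.54 and 0.46 and Akt1 by 0.27 and 0.51, beside the values of Mycn and Max given with the promoters.

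The p53 target genes other than Cdkn1a were mixed too. Of 16, 4 rose and 7 fell on day 5 and 8 rose and 6 fell on day 7, with medians of 0.070 and 0.086, beside −0.061 and −0.029 over all genes. Of all genes, 14.8% were called higher and 17.9% lower on day 5 and 23.4% and 25.8% on day 7. The day 5 count of 11 called genes fell to 5 (3 higher, 2 lower) without replicate 3 of shRNA-CON. It was 6 (3 and 3) with the replicate number as a block, with no trend in the variance prior, and without replicate 2 of shRNA-CON or replicate 2 or 3 of shRNA-RUS, and 7 (4 and 3) without replicate 1 of shRNA-CON. Gadd45a, a stress-induced inhibitor of growth, was at 13.9 to 19.9 and 24.2 to 33.0 scaled TPM on day 5 and at 8.35 to 11.3 and 22.9 to 36.7 on day 7, and it rose by 0.87 (SE 0.13, adjusted p = 0.00111) and 1.48 (SE 0.14, adjusted p = 2.48e-05). Zmat3 was at 0.24 on day 5 (adjusted p = 0.068) and rose by 0.95 on day 7. Pmaip1 (Noxa), a trigger of apoptosis, fell with −1.07 and −0.90, and the receptor gene Eda2r with −0.995 and −0.84. Cdkn1a thus moved with some genes of the list and against others.

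Exon overlaps touch other genes of the group as well. Ccnd1 overlaps LTO1 (18.5 to 28.9 TPM as deposited), Ccnd2 also 9330179D12Rik (0.53 to 2.46), Ccnd3 overlaps Bysl (9.01 to 13.3), Ccne2 overlaps Ints8 (21.2 to 38.4), which is above Ccne2 itself, Cdk6 overlaps Gm17590 (0 to 1.55) and Cdkn1a overlaps AC167363.2. Ccne1, Cdkn1b and E2f1 have no annotated exon overlap.

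The genes whose pattern was most like that of each gene of the group were found by Pearson correlation of log2 levels over the 16 libraries, among 15899 genes. These libraries fall into 4 groups, so that a high value says mainly that group means rank alike, and no p is given. Ccne2 was closest to Rbl1 (r = 0.990), Ccne1 to Snf8 (0.987) and to the mitotic genes Kif22 (0.986) and Cdca8 (0.984), E2f1 to Lrrc59 (0.992), and Ccnd1 to the protein S gene Pros1 (0.997). Cdk4 was closest to Ost4 (0.983), Cdk6 to Erlin1 (0.991), Ccnd2 to Tbc1d5 (0.987) and Cdkn1a to Grik5 (0.991). The closest genes of Cdkn1b, Zfand6 (0.956), and of Ccnd3, Ntan1 (0.957), had the lowest values of the 10.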

How the data were processed

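RNA-seq libraries of NSC were taken as labelled, in groups of 4 for each shRNA and day. PolyA RNA was sequenced by the authors on a NextSeq, and reads were aligned to mm10 with STAR and quantified with RSEM on GRCm38.99 transcripts. They deposited TPM per library in a table for each day, beside their own DESeq2 comparison (base means of normalized signal, log2 fold changes, their errors, test scores and p-values), which was not used. Depth is unknown, since TPM sum to between 999999.3 and 1000000.7 in each library, with 25615 to 29126 genes above 0. Intervals cover the spread between libraries only.

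TPM were divided by median-ratio factors over genes with at least 1 TPM in all libraries of a fit (0.920 to 1.11 for day 5, 0.991 to 1.01 for day 7, 0.845 to 1.10 for all 16). Printed levels use the factors of the 16 libraries, and fold changes of a day use the factors of that day. Genes whose mean reached 0.1 TPM (22584 on day 5, 24606 on day 7, 23789 in the fit of 16) were tested on log2(scaled TPM + 0.1), a scale that understates changes of low genes, with limma 3.58.1 (lmFit, eBayes with trend, two-sided) and Benjamini-Hochberg adjustment. Day comparisons and the difference of effects came from the fit of 16 libraries over 55365 lines. The test was also run on simulated data with known changes, and no result of that run is given here. Python 3.11.15, pandas, scipy and matplotlib did the rest. Positions came from GENCODE vM21 and promoters from RefSeq, by symbol.

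The 10 genes, the lists and the tests were chosen with earlier results of these data known. Named were the 10 genes, up to 4 called genes per list with the largest fold change, a set of named partners (pocket proteins, Cdk2, Skp2 and the other inhibitors), and the 3 nearest genes by correlation, of which the report gives some. The alternatives were another value added before the log2 (1 or 0.01), a filter at 1 TPM or none, TPM as deposited, quantile normalization, 75th percentile scaling, eBayes without trend, a replicate block and leaving out each library. The sums with overlapping genes, the list counts under the alternatives and the E-box word were added after the values had been seen.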

Additional observations from a re-analysis of the deposited data

Results flagged for a closer look

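In 3 of the 40 groups of 4 libraries (10 genes, 4 groups), 1 library stood apart by Dixon's criterion, which chance meets in about 1 group in 20: replicate 3 of shRNA-RUS on day 7 with 163 scaled TPM of Ccnd2, replicate 3 of shRNA-RUS on day 5 with 11.3 of Ccne1, and replicate 1 of shRNA-CON on day 5 with 18.4 of Cdk6, each the highest of its group. Leaving out the library ended no call of these genes between the shRNAs.

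The effect of shRNA-RUS differed between day 5 and day 7 for 5 genes in the limma fit of 16 libraries, with a difference of log2 fold changes of −0.483 for Ccne1 (adjusted p = 0.00397), −0.405 for E2f1 (0.00254), −0.276 for Cdk4 (0.022), 0.327 for Cdkn1a (0.00837) and 0.363 for Cdkn1b (0.00235). Of all genes, 14.6% were called with a negative and 15.2% with a positive difference. The calls of Cdk4 and E2f1 were lost with TPM as deposited (adjusted p = 0.301 and 0.0922), and that of Cdk4 also after quantile normalization (0.45) and without replicate 2 of shRNA-RUS on day 7 (0.0501).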

How the results depend on the processing

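The number of the 10 genes called ranged over the alternatives from 7 to 9 on day 5 and from 9 to 10 on day 7, from 6 to 9 over time in shRNA-CON, from 7 to 10 over time in shRNA-RUS and from 4 to 6 for the difference of effects. The 7 decreases of both days were called under every alternative run. With TPM as deposited, values turned sign on day 5 for Ccnd3 (−0.0115) and Cdkn1b (−0.0848), over time for Cdk4 in shRNA-CON (0.0343) and for Ccnd3 (0.000716) and Cdkn1a (0.0585) in shRNA-RUS, and for the difference of Ccnd3 (0.105). Quantile normalization turned Cdkn1b on day 5 (−0.052), Cdk4 over time (0.176 in shRNA-CON, 0.088 in shRNA-RUS), Cdkn1a over time in shRNA-RUS (0.206), and the difference of Ccnd3 (0.0586) and of Ccne2 (−0.121); a value of 1 added before the log2 turned the difference of Ccne2 (−0.0138). The sum with Gm43126 turned Ccnd2 over time (−0.323 and −0.285), and the sum with Tspan31 passed the exact test for Cdk4 over time in shRNA-CON (−0.152). With 1 library left out, Ccnd2 over time in shRNA-CON ranged from −0.0658 to 0.0564 and the difference of Ccne2 from −0.0343 to 0.0955, never called. The increase of Ccnd2 over time in shRNA-RUS was not called without replicate 1, 2 or 3 of day 5 or replicate 3 of day 7, and replicate 4 of shRNA-RUS on day 5 kept the difference of Ccnd2 and the decrease of Cdk4 over time in shRNA-CON from being called. The cause of these changes was not tested.

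Within a day, libraries of the shRNAs with the same replicate number correlated in their deviations by r from −0.253 to −0.0155 on day 5 and from 0.0159 to 0.101 on day 7, too little to treat them as pairs (numbers across the days were not compared). With the number as a replicate block 8 and 9 genes were called on the days, as without it. Of the genes called on day 5, 45.3% were higher with scaled TPM and 22.7% with TPM as deposited, and for the difference of effects 51.1% and 73.5%, and over time 55.5% and 71.4% in shRNA-CON and 57.5% and 76.9% in shRNA-RUS. Counts of the pathway lists stayed within 1.5 times in 837 of 872 alternatives. Of the list counts on the days, those that moved further were the p53 targets on day 5 (from 11 to between 5 and 7), the other CDK inhibitors (from 3 to 1 on day 5, from 4 to 2 on day 7) and Cdk2 with the activators on day 7 (from 5 to 3), each named with its libraries in the report. The others that moved were counts over time or of the difference between the days: Cdk2 with the activators over time in shRNA-CON (1 with TPM as deposited), turnover over time in shRNA-CON (8 with TPM as deposited, 2 with quantile normalization), and the differences of the other E2F factors (4), the other CDK inhibitors (1), the upstream regulators (3) and the E2F targets (5). Depth limits cannot be given from TPM, and the low level of Gm20754 leaves its depletion unresolved in these libraries.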
